A study of Homo sapiens with 8 samples.

Results

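The nuclear genes of oxidative phosphorylation were followed at their promoters in maps of H3K27ac, the acetylation of lysine 27 on histone H3 that marks active promoters and enhancers. Membership was decided by gene symbol, and the rule uses no measured value. The members are the GENCODE protein-coding genes whose symbols begin with NDUFA, NDUFB, NDUFC, NDUFS, NDUFV, ATP5, UQCR or COX4 to COX8, together with SDHA, SDHB, SDHC and SDHD. This gave 98 members among 20033 protein-coding genes. The symbol rule also admits 8 assembly factors of complex I (NDUFAF genes), the ATP synthase inhibitor ATP5IF1 and the readthrough genes NDUFC2-KCTD14 and ATP5MF-PTCD1. It leaves out cytochrome c (CYCS), cytochrome c1 (CYC1) and the subunits encoded in mitochondrial DNA.

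The cells were HCEC-1CT, human colonic epithelial cells immortalized with CDK4 and hTERT, carrying a doxycycline-inducible Cas9. WT cells have both the parental CREBBP genotype and the inducible Cas9, and the CREBBP-KO cells differ from them by guide-directed disruption of CREBBP, the gene of the acetyltransferase CBP. Each genotype had 3 ChIP-seq libraries, numbered as replicates and each deposited as a MACS2 peak list. The sources used here do not state whether the replicates were grown separately. The 2 input libraries, 1 per genotype, were not analysed. The methods call the knockout cells used for ChIP-seq monoclonal, and they also describe final populations pooled from several clones for each target beside a matched parental pool. Which of these gave each library is not resolved in the sources used here. Where a library came from 1 clone, loss of CREBBP and other properties of that clone cannot be told apart. For each gene the highest fold enrichment of any peak overlapping the 1 kb either side of its annotated starts was taken in each list. Each value was read in both of the following ways. The list percentile ranks the peak among all peaks of its own list, and the promoter percentile ranks the gene among the 12327 genes that had a promoter peak in all 6 lists.

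Oxidative phosphorylation moves electrons from NADH through complex I, or from succinate through complex II, to complex III and then through cytochrome c to complex IV, where oxygen is reduced. Complexes I, III and IV pump protons across the inner mitochondrial membrane, and complex V, the ATP synthase, uses the gradient to make ATP. Most subunits are nuclear-encoded housekeeping genes, and their promoters are textbook targets of NRF1 (nuclear respiratory factor 1), of the ETS-family factor GABP and of YY1. CBP and its paralogue p300 acetylate H3K27, and colonic epithelium is a tissue in which differentiated cells rely heavily on respiration.

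Promoter sequences are shown for the members with the largest shifts between genotypes and for other called members whose printed stretch holds a match to the NRF1, ETS, YY1 or CRE string. The sequences are those of RefSeq on GRCh38.p14, printed 5′ to 3′ on the strand of the gene. Of the 250 bases before the annotated start, each is the longest stretch that no GENCODE exon of any gene overlaps, since exons of other transcripts or of neighbouring genes reach into many of these windows. Stretches under 60 bases were not shown. Capitals mark exact matches, on either strand, to CGCATGCG (NRF1), to CCGGAAGT (ETS), to AAGATGGCG (YY1), to TGACGTCA (the cyclic AMP response element, CRE), to GGGCGG (SP1), to CCAAT or to TATAAA. No string contains another, although matches may overlap at their ends. ATP5PO (chr21:33915978-33916054, minus strand), NDUFAF1 (chr15:41402533-41402746, minus) and ATP5F1A (chr18:46098354-46098546, minus) had the largest shifts upward in CREBBP-KO among members with a sequence to show.
ATP5PO: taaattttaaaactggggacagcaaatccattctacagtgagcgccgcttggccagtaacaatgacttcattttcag
NDUFAF1: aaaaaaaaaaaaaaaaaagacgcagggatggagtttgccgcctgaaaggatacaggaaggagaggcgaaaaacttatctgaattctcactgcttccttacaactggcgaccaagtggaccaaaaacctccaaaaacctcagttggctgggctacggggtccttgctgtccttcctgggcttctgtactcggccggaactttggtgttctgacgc
ATP5F1A: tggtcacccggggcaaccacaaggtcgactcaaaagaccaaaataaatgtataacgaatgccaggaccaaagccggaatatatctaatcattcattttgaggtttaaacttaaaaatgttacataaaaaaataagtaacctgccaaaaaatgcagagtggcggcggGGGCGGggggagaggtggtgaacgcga

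NDUFA1 (chrX:119871734-119871831, plus strand), ATP5MK (chr10:103396493-103396625, minus) and NDUFB8 (chr10:100530001-100530121, minus) had the largest shifts in the other direction.
NDUFA1: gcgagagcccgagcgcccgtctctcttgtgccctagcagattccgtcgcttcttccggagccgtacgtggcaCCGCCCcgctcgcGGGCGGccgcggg
ATP5MK: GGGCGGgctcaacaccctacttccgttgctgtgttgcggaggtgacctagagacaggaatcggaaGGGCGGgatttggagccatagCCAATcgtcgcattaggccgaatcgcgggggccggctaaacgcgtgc
NDUFB8: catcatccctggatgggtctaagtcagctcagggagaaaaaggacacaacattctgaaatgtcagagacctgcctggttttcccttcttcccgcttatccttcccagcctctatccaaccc

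ATP5MC2 (chr12:53676084-53676175, minus strand) and COX5B (chr2:97645812-97646061, plus), both higher in CREBBP-KO, and COX8A (chr11:63974370-63974619, plus) and NDUFA5 (chr7:123557905-123558068, minus), both lower, hold an NRF1 or an ETS match.
ATP5MC2: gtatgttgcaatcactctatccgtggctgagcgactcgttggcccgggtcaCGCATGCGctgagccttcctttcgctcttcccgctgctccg
COX5B: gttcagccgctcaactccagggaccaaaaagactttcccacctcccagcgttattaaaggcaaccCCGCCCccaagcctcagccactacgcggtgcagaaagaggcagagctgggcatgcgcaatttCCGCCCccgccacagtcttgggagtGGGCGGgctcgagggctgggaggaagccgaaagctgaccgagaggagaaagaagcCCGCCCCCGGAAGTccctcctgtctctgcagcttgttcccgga
COX8A: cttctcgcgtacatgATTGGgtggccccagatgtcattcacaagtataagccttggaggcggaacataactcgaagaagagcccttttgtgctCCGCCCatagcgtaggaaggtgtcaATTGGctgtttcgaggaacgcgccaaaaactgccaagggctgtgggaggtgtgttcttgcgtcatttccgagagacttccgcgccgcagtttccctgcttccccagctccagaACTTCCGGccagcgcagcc
NDUFA5: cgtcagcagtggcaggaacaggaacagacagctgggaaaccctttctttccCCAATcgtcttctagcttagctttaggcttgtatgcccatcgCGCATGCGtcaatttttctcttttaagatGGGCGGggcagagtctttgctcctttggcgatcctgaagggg

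The first base of the NRF1 match lies at -41 in ATP5MC2 and at -157 in NDUFA5, counted from the annotated start. The ETS match begins at -37 in COX5B, directly after an SP1 match, and at -19 on the opposite strand in COX8A. The ATP5PO, NDUFAF1 and NDUFB8 stretches hold no capital, which says only that these exact letters are not there.

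The WT lists held 86163 to 93567 peaks, and the CREBBP-KO lists were longer, with 99008 to 111697. They carry no read counts, so the depth behind each value is unknown. Fold enrichments and ranks are relative within a library, and the methods describe no spike-in, so neither measures the total amount of H3K27ac. In these cells the paper reports moderately lower total H3K27ac in CREBBP-KO by mass spectrometry, of borderline significance. By immunofluorescence it reports a significant but small decrease. The median shift in log2 fold over all promoters tested was nevertheless 0.29 upward in CREBBP-KO. Across the promoters tested, scores correlated at 0.92 to 0.93 within WT, 0.93 within CREBBP-KO and 0.81 to 0.82 between genotypes, so each library stood nearest to its own genotype. A promoter peak tended to sit at a higher list percentile in the KO lists. The library medians over all promoters tested ran from 87.2 to 88.3 in WT, whereas those of CREBBP-KO ran from 91.1 to 91.8. The lists cannot check the knockout itself, since the CREBBP promoter kept its peak in every library, at list percentiles of 96.5, 98.6 and 94.8 in WT and 98.8, 98.8 and 99.3 in CREBBP-KO. Of 5 intestinal markers only MUC2 had a peak that reached its promoter window, with a summit at -1250 bp from the nearest start (median over the lists). It was higher in CREBBP-KO, at list percentiles of 52.95 ± 2.23 in WT and 84.1 ± 2.06 in CREBBP-KO (SD, n = 3). The shift was 0.94, with an adjusted p of 0.0021 in limma. CDX1, CDX2, VIL1 and LGR5 had no peak in any library. Of 5 epithelial markers CDH1 and KRT19 had none, KRT18 had one in 5 of 6 libraries, KRT8 stood at a list percentile of 48.0 ± 13.2 in WT and 67.9 ± 7.36 in CREBBP-KO, and EPCAM stood at 5.27 ± 4.45 and 33.8 ± 13.3 (SD, n = 3). All 5 mesenchymal markers (FN1, COL1A1, COL1A2, VIM, ZEB1) lay above the 96th list percentile in every library, and FN1, COL1A1 and ZEB1 were higher in CREBBP-KO. No blood, muscle or testis marker had a peak. The endothelial marker PECAM1 had one in the 3 KO libraries alone, at list percentiles of 12.5 to 39.6, and CDH5 had none. The part of these marker differences in the results that follow was not tested.

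Nearly every member carried promoter H3K27ac in both genotypes. A peak was found in all 6 lists for 91 of the 98 members, and the other 7 had a peak in no list, so no member gained or lost its promoter peak between genotypes. The members without a peak were the isoforms COX4I2, COX6A2, COX6B2, COX7A1, COX7B2 and COX8C of complex IV, and UQCRHL, an intronless relative of the complex III hinge protein gene UQCRH. COX4I2 is the lung isoform of subunit 4, COX6A2 and COX7A1 are the heart and muscle isoforms, and COX6B2, COX7B2 and COX8C are known from testis. Their ubiquitous partners were all marked. In list percentiles, COX4I1 stood at 86.1 ± 2.36 in WT and 92.2 ± 2.92 in CREBBP-KO (SD, n = 3). COX6A1 was lower, at 69.8 ± 2.61 and 80.04 ± 1.15, and COX6B1 stood at 75.6 ± 0.783 and 78.6 ± 3.45. COX7A2 (88.9 ± 4.62 and 97.1 ± 0.940), COX7B (88.4 ± 4.23 and 88.7 ± 1.38) and COX8A (92.1 ± 1.94 and 88.7 ± 2.52) completed the set. The UQCRHL parent UQCRH stood at 99.4 ± 0.305 and 99.6 ± 0.164.

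A further pair of isoform genes did carry a peak. NDUFA4L2, the hypoxia-inducible relative of NDUFA4, stood at list percentiles of 72.7, 75.5 and 74.2 in WT and 86.6, 87.8 and 85.1 in CREBBP-KO, against 99.0 to 99.9 for NDUFA4 over all libraries. The genotypes of NDUFA4L2 did not overlap, and its shift among promoters of 0.41 ± 0.17 (SE) missed the threshold, with an adjusted p of 0.0897. ATP5MGL, a relative of the ATP synthase g subunit ATP5MG, took its value from the edge of a wide peak whose summit lay at -5176 bp from its start (median over the lists). Its list percentiles scattered from 61.8 to 88.7 in WT and from 79.3 to 89.96 in CREBBP-KO, whereas ATP5MG ran from 85.6 to 92.4 over all 6 libraries.

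**Figure D1:**
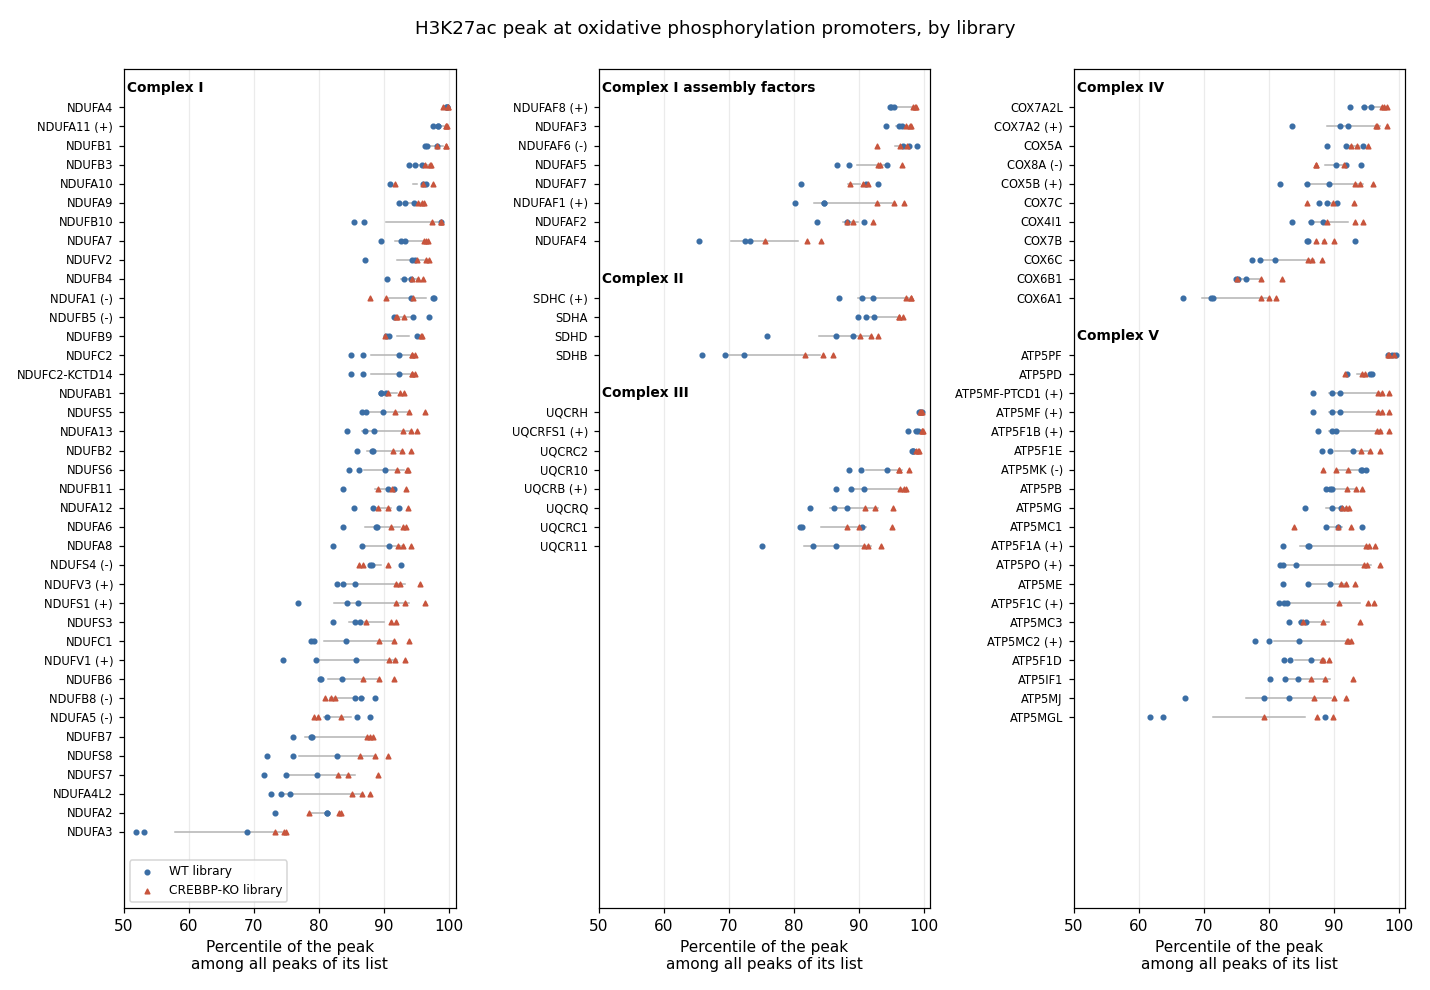
List percentile (horizontal axis, percent of the peaks in a library's own list) of the highest promoter peak of 90 of the 91 members, with 3 WT libraries as circles, 3 CREBBP-KO libraries as triangles and a line between the genotype means. Signs after a name mark members called higher (+) or lower (-) among promoters, and most members sit above 80, with NDUFA3 the lowest at 51.8 to 75.0.

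The marked members had strong peaks within the lists, close to those of all promoters tested. By mean promoter percentile, 50 of the 91 members lay above the median promoter in WT and 59 in CREBBP-KO. Their median list percentile was 88.2, 88.2 and 87.7 in the WT libraries and 92.4, 93.2 and 93.5 in the CREBBP-KO libraries, and the groups did not overlap. Over all promoters tested the medians were 87.2, 87.3 and 88.3 in WT and 91.8, 91.3 and 91.1 in CREBBP-KO, so the members' medians lay above those of all promoters in 5 libraries and below in WT replicate 3. Few members had weak peaks. A mean percentile over 80 was found in 85 of 91 members (93.4%), compared with 78.0% of all promoters tested. The median fold enrichment of the members was between 11.5 and 11.8 in each WT library, against 13.9, 15.6 and 16.5 in the KO libraries. Over all promoters tested it was 11.3, 11.1 and 12.0 in WT and 13.4, 14.0 and 14.5 in CREBBP-KO.

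The strongest promoters came from several complexes, with UQCRH and UQCRFS1 both from complex III. NDUFA4, first described in complex I and now assigned to complex IV, had a mean list percentile of 99.6. High values were also found at UQCRH (99.5), at the Rieske iron-sulphur protein gene UQCRFS1 (99.1) and at ATP5PF (98.9), the coupling factor 6 of the ATP synthase stalk. Their library ranges overlapped, with NDUFA4 at 99.0 to 99.9, UQCRH at 99.2 to 99.8, UQCRFS1 at 97.6 to 99.9 and ATP5PF at 98.3 to 99.6, so these promoters were not separated. At the other end stood NDUFA3 (66.1), COX6A1 (74.9), the assembly factor NDUFAF4 (75.5), SDHB (76.7) and COX6B1 (77.1). NDUFA3, an accessory subunit of complex I, had list percentiles of 53.1, 51.8 and 68.9 in WT and 73.3, 75.0 and 74.6 in CREBBP-KO. Its ranges did not overlap on that scale, but among promoters it moved only from 7.44 ± 3.86 to 9.54 ± 1.27 (SD, n = 3). Among the remaining low members the ranges of COX6A1, NDUFAF4, SDHB and COX6B1 all overlapped each other.

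The peaks had the shape seen at other active promoters. The median peak width was 2560 bp, against 2624 bp over all promoters tested. The summit lay downstream of the nearest start in 66 of 91 members (72.5%), against 65.0% of all promoters, with a median offset of 183 bp into the gene against 125.5 bp. Summits lay within 1 kb of a start in 88 members. The exceptions were ATP5MGL, NDUFB10 and NDUFS6, whose values came from peaks that reached the window from farther away, with a summit at 5010 bp for NDUFB10 and at -1768 bp for NDUFS6. Members often shared a peak with a neighbour. In all 6 lists 42 of the 91 members (46.2%) had a highest peak that was also the highest peak of another protein-coding gene, against 25.0% of all promoters tested. These included ATP5PF with GABPA, the DNA-binding subunit of GABP, NDUFS1 with the elongation factor gene EEF1B2, NDUFB8 with HIF1AN, NDUFS6 with the mitochondrial ribosomal gene MRPL36, NDUFA7 with RPS28, SDHD with TIMM8B and UQCRH with LRRC41. At such places the peak cannot be assigned to 1 gene. NDUFC2 shared its peak with NDUFC2-KCTD14, and ATP5MF with ATP5MF-PTCD1, so the 91 members rest on 89 different peaks.

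The comparison of CREBBP-KO with WT asked how loss of CREBBP shifted these promoters relative to the others. More members moved up than down, although the excess over all promoters was not held on every scale or with every library left out. The rank of each gene among promoters was turned into a normal score and tested by limma across all 12327 genes, with Benjamini-Hochberg adjusted p under 0.05. In CREBBP-KO 18 members were higher (19.8% of 91, background 14.5%) and 8 were lower (8.79%, background 14.0%), and 65 were not called. The 18 rest on 17 different peaks. The median shift was 0.24 over the members and 0.01 over all promoters tested, beside a median SE of 0.198 for a single member. All 3 KO libraries lay above all 3 WT libraries in promoter percentile at 26 members (28.6%, background 21.7%) and below them at 9 (9.89%, background 20.5%). By list percentile, 51 members were higher (56.0%, background 37.4%) and 2 were lower (2.20%, background 5.16%). The mean list percentile was higher in CREBBP-KO at 79 members (86.8%, against 75.95% of all promoters tested) and in WT at 12. With log2 fold in place of ranks 57 members were higher (background 42.4%) and 1 lower (background 3.48%). With peaks ranked by -log10 p in place of fold 4 of 91 were higher (background 5.39%) and 2 lower (background 5.86%), so neither share exceeded its background. Without CREBBP-KO replicate 3 the higher members numbered 10 of 91 (1288 of all genes, 10.4%), a share close to that of all genes. The lower members numbered 5 without CREBBP-KO replicate 1 (1355 of all genes) and 5 without WT replicate 3 (1450 of all genes), against 1787 higher and 1728 lower with all libraries. Of the 26 members called, 11 were called whichever library was left out (ATP5PO, ATP5F1A, ATP5F1B, ATP5MF, ATP5MF-PTCD1, NDUFAF1, SDHC, UQCRB, NDUFA1, ATP5MK and NDUFB8), and 15 lost the call without at least 1 library.

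The ATP synthase held the most members called higher, 7 of the 20 tested (35.0%) with 1 lower (5.0%). Over all promoters tested 14.5% were higher and 14.0% lower, the shares to set beside each complex below. Complexes were counted by gene symbol, so NDUFA4 and its relative NDUFA4L2, neither of them called, are counted in complex I and not in complex IV. ATP5MF and its readthrough ATP5MF-PTCD1 rest on the same peak, and ATP5F1C and ATP5MC2 lost the call without at least 1 library. The catalytic F1 head has 3 alpha and 3 beta subunits around the gamma shaft, and the genes of all of these were higher. ATP5PO, which encodes the oligomycin sensitivity-conferring subunit that joins the stalk to the head, had the largest rise. Its promoter stood at list percentiles of 84.2, 81.8 and 82.2 in WT and 97.2, 95.2 and 94.6 in CREBBP-KO. The fold enrichment rose from 9.68 ± 0.441 to 18.3 ± 1.06 (SD, n = 3), and the shift was 0.98 ± 0.19 (SE) with an adjusted p of 0.00156. Every KO library lay above every WT library.

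The beta subunit gene ATP5F1B had fold enrichments of 12.4, 12.5 and 11.7 in WT and 19.3, 24.3 and 20.6 in CREBBP-KO. Its shift was 0.82 ± 0.19 (SE, adjusted p = 0.0059). The alpha subunit gene ATP5F1A stood at 10.9, 10.6 and 9.71 in WT and 16.9, 17.4 and 20.0 in CREBBP-KO, a shift of 0.79 ± 0.19 (adjusted p = 0.00573). For both genes the lowest KO value exceeded the highest WT value by more than the spread within either genotype. The gamma subunit gene ATP5F1C was tight in WT, at 9.51, 9.56 and 9.50, and spread in CREBBP-KO, at 16.7, 13.6 and 19.7 (shift 0.77 ± 0.20, adjusted p = 0.0105). This peak is shared with the neighbouring gene KIN.

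In the membrane part, ATP5MF, the f subunit, went from fold enrichments of 13.2, 12.2 and 11.4 in WT to 19.9, 20.0 and 24.9 in CREBBP-KO (shift 0.86 ± 0.20, adjusted p = 0.00538). The readthrough ATP5MF-PTCD1 has the same peak and the same values. ATP5MC2, one of the genes of the proton-carrying c-ring, rose by 0.60 ± 0.18 (adjusted p = 0.0194), with all KO libraries between list percentiles of 92.1 and 92.6 and all WT libraries between 77.8 and 84.6. The other c-ring genes did not follow it. ATP5MC1 had a shift of -0.56 ± 0.23 (adjusted p = 0.0763) and ATP5MC3 one of 0.05 ± 0.22 (adjusted p = 0.899), although all of them encode the same mature protein. Among the remaining head subunits ATP5F1D (delta) had a shift of -0.02 ± 0.17 and ATP5F1E (epsilon) one of 0.36 ± 0.20, and neither was called. The inhibitor ATP5IF1 had a shift of 0.20 ± 0.20.

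**Figure D2:**
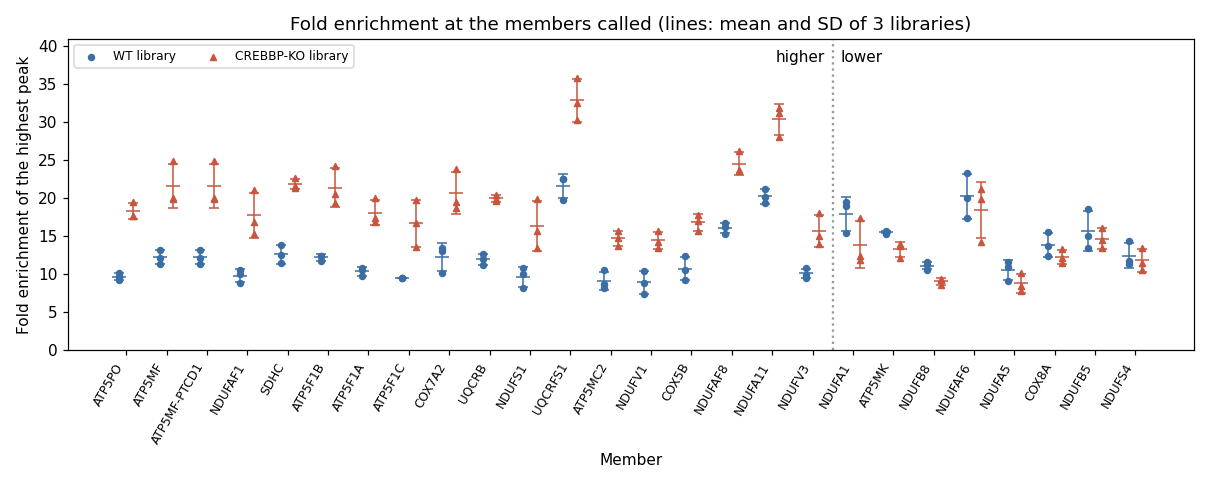
Fold enrichment of the highest promoter peak (vertical axis, linear from 0) at the 18 members called higher and the 8 called lower, with each WT library as a circle, each CREBBP-KO library as a triangle, and the mean and SD of the 3 libraries. At the higher members the genotypes are apart, as for ATP5PO at 9.68 and 18.3, and at 6 of the 8 lower members the ranges overlap.

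Complex II, which is also the succinate dehydrogenase of the citric acid cycle, had 1 of 4 members called. SDHC, a membrane anchor, stood at list percentiles of 92.2, 90.5 and 87.0 in WT and 98.0, 98.0 and 97.3 in CREBBP-KO. Its fold enrichment rose from 12.6 ± 1.22 to 21.9 ± 0.648 (SD, n = 3), a shift of 0.84 ± 0.19 (SE, adjusted p = 0.0052). The flavoprotein gene SDHA had fold enrichments of 14.0, 12.2 and 13.4 in WT and 17.8, 20.0 and 19.8 in CREBBP-KO, with a shift of 0.40 ± 0.18 that missed the threshold (adjusted p = 0.108). The iron-sulphur subunit gene SDHB had the weakest peak of the complex, at 7.0, 6.44 and 6.09 in WT and 10.1, 9.12 and 10.7 in CREBBP-KO (shift 0.43 ± 0.18, adjusted p = 0.0904). SDHD, the other anchor, had 12.2, 7.74 and 11.3 in WT and 12.3, 14.5 and 16.0 in CREBBP-KO (shift 0.29 ± 0.22, adjusted p = 0.357). The genotypes of SDHA and SDHB were apart and those of SDHD overlapped in promoter percentile. By list percentile all 4 genes were higher, on a scale where 37.4% of all promoters tested were.

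Complex III had 2 members higher among 8, and UQCRH alone had a shift below 0, of -0.14 ± 0.18. UQCRB, which encodes a small subunit at the ubiquinone site, had fold enrichments of 12.0, 12.7 and 11.2 in WT and 19.6, 20.5 and 19.9 in CREBBP-KO (shift 0.72 ± 0.19, adjusted p = 0.0103). UQCRFS1, already among the strongest promoters in WT, went from 19.8, 22.5 and 22.5 to 30.3, 35.8 and 32.6 (shift 0.60 ± 0.19, adjusted p = 0.0271). The core genes were not called among promoters, and their difference from the called genes was not tested. UQCRC2 had a shift of 0.09 ± 0.17 and UQCRC1 one of 0.24 ± 0.23. With log2 fold in place of ranks both were called higher in limma. The shifts were then 0.35 for UQCRC2 (adjusted p = 0.0122) and 0.44 for UQCRC1 (adjusted p = 0.0448), on a scale where 42.4% of all promoters were higher. UQCRC1 overlapped between genotypes, at list percentiles of 81.0, 81.3 and 90.5 in WT and 90.04, 88.2 and 95.03 in CREBBP-KO.

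In complex IV 2 of 11 members were higher and 1 was lower. COX7A2, a small subunit, had fold enrichments of 13.1, 13.5 and 10.2 in WT and 18.7, 19.5 and 23.9 in CREBBP-KO (shift 0.75 ± 0.23, adjusted p = 0.0211). COX5B, a matrix-side subunit, went from 9.29, 10.5 and 12.4 to 17.8, 15.7 and 17.1 (shift 0.55 ± 0.19, adjusted p = 0.0406). COX5B was called in 1 of the 6 fits that each left out a library. Its partner COX5A had a shift of -0.08 ± 0.19 (adjusted p = 0.785). COX8A, the smallest subunit, was lower among promoters, at promoter percentiles of 66.3, 60.5 and 72.2 in WT and 49.5, 34.4 and 35.1 in CREBBP-KO (shift -0.69 ± 0.19, adjusted p = 0.0124). Its list percentiles overlapped between genotypes.

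Complex I was divided, with 4 of 40 members higher and 5 lower, both within a few points of the shares over all promoters. The higher members were NDUFS1, NDUFV1, NDUFV3 and NDUFA11. NDUFS1, the largest subunit, which carries iron-sulphur clusters, had fold enrichments of 10.8, 9.98 and 8.18 in WT and 13.5, 15.7 and 19.9 in CREBBP-KO (shift 0.70 ± 0.23, adjusted p = 0.0293), at a peak shared with EEF1B2. NDUFV1, the NADH-binding flavoprotein, went from list percentiles of 74.5, 85.7 and 79.5 to 91.7, 93.2 and 90.8 (shift 0.60 ± 0.20, adjusted p = 0.036). NDUFV3, the small subunit beside it, had a shift of 0.53 ± 0.19 (adjusted p = 0.0461), and the membrane subunit NDUFA11 one of 0.53 ± 0.18 (adjusted p = 0.0344). NDUFV3 was not called after any 1 of the 6 libraries was left out, and NDUFA11 and NDUFV1 were each called in 1 of these 6 fits.

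The largest fall of any member was at NDUFA1, an X-linked accessory subunit at the joint of the complex I arms. Its promoter percentiles were 75.6, 90.4 and 88.2 in WT and 43.6, 36.5 and 65.9 in CREBBP-KO. The fold enrichment was 18.0 ± 2.26 in WT and 13.9 ± 3.07 in CREBBP-KO (SD, n = 3), and the shift was -1.09 ± 0.23 (SE, adjusted p = 0.00271). NDUFA1 was lower also by list percentile, with a shift of -0.50 (adjusted p = 0.0124), although 1 KO library at 94.4 passed the lowest WT library at 94.2. The peak is shared with RNF113A.

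NDUFB8, a membrane-arm subunit used as a marker of assembled complex I, had promoter percentiles of 44.5, 54.1 and 44.1 in WT and 18.3, 21.5 and 18.4 in CREBBP-KO (shift -0.80 ± 0.17, adjusted p = 0.00338). Its fold enrichment was 11.1 ± 0.513 and 9.06 ± 0.467. NDUFA5 was lower by 0.73 ± 0.19 (adjusted p = 0.0104), NDUFB5 by 0.61 ± 0.20 (adjusted p = 0.0307, at a peak shared with MRPL47) and NDUFS4 by 0.53 ± 0.19 (adjusted p = 0.0494). NDUFS4 was called in 1 of the 6 fits that left out a library. At NDUFA5, NDUFB5 and NDUFS4 the list percentiles of the genotypes overlapped.

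ATP5MK, a small membrane subunit of complex V that helps ATP synthase form dimers, was the other member lower on both scales. Its promoter percentiles were 75.4, 78.8 and 72.9 in WT and 51.9, 38.3 and 46.5 in CREBBP-KO, and its fold enrichment was 15.5 ± 0.161 and 13.3 ± 0.964 (SD, n = 3). The shift was -0.81 ± 0.18 (SE, adjusted p = 0.00415) among promoters and -0.30 (adjusted p = 0.0426) by list percentile. At the 8 lower members the KO mean of the fold enrichment was 0.773 to 0.950 times the WT mean, while at the 18 higher members it was 1.501 to 1.893 times the WT mean, and the median ratio over the 65 members not called was 1.32. The other 6 lower members were lower among promoters and were not called by list percentile.

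Among the complex I assembly factors, 2 of 8 were higher and 1 was lower. NDUFAF1, a factor of the membrane-arm assembly complex, stood at list percentiles of 80.2, 84.6 and 84.6 in WT and 95.4, 92.9 and 97.0 in CREBBP-KO (shift 0.85 ± 0.20, adjusted p = 0.00556). NDUFAF8 had a smaller but even shift of 0.54 ± 0.18 (adjusted p = 0.0301), from 95.1 ± 0.312 to 98.6 ± 0.268 (SD, n = 3), and was called in 1 of the 6 fits with a library left out. NDUFAF6 had promoter percentiles of 89.9, 86.3 and 94.8 in WT and 55.2, 82.8 and 76.4 in CREBBP-KO (shift -0.73 ± 0.23, adjusted p = 0.0232), at a peak shared with TP53INP1. The first KO library lay far below the other two.

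The genes around the pathway did not move as one. Of 41 further assembly factors of the respiratory complexes, all with a peak in every list, 8 were higher (19.5%) and 4 lower (9.76%). These shares were near those of the members, beside 14.5% and 14.0% of all promoters tested. The higher ones included COX18 (shift 1.08 ± 0.19, adjusted p = 0.000979) and OXA1L (0.98 ± 0.20, adjusted p = 0.00279), which insert subunits into the inner membrane, and TMEM70 (0.89 ± 0.19, adjusted p = 0.0036), which acts in building the ATP synthase. The lower ones were COX10, the haem farnesyltransferase (-1.19 ± 0.19, adjusted p = 0.000421), the copper-route factors COX20 (-1.18 ± 0.18, adjusted p = 0.000466) and SCO1 (-0.86 ± 0.22, adjusted p = 0.00825), and the complex III factor UQCC1 (-0.97 ± 0.19, adjusted p = 0.00164). CYCS had a shift of -0.39 ± 0.23 and CYC1 one of 0.30 ± 0.19, and neither was called.

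Of 13 regulators of respiratory genes 11 were tested, with 1 higher (9.09%, background 14.5%) and 3 lower (27.3%, background 14.0%). TFAM, the packaging factor of mitochondrial DNA, was higher (0.56 ± 0.19, adjusted p = 0.0373). GABPB1, the activating subunit of GABP, was lower by 1.34 ± 0.17 (adjusted p = 0.000108), from 99.9 in each WT library to list percentiles of 99.1, 98.5 and 98.8 in CREBBP-KO. TFB2M, a mitochondrial transcription factor (-0.82 ± 0.19, adjusted p = 0.00481), and the coactivator PPRC1 (-0.63 ± 0.18, adjusted p = 0.0178) were lower too. GABPA shares the ATP5PF peak and so had its shift of -0.40 ± 0.20 (adjusted p = 0.141). NRF1 had a shift of 0.52 ± 0.21 (adjusted p = 0.0734). PPARGC1A had no peak in any list. The coactivator gene PPARGC1B was not tested, since it had a peak in 4 lists, at list percentiles of 22.6, 40.6 and 29.0 in CREBBP-KO and 2.03 in 1 WT library.

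Of 13 citric acid cycle genes other than SDH, 1 was higher (FH, 7.69%) and 2 were lower (IDH3G and SUCLA2, 15.4%). The shares over all promoters tested were 14.5% and 14.0%. Of 77 mitochondrial ribosomal protein genes tested, 9 were higher (11.7%) and 13 lower (16.9%), within a few points of the shares over all promoters. Of 78 cytosolic ribosomal protein genes, housekeeping genes of another kind, 19 were higher (24.4%) and 8 lower (10.3%), shares near those of the members. Their median shift was 0.10, that of the mitochondrial ribosomal genes 0.02 and that of the citric acid cycle genes -0.19, beside 0.24 for the members. The cytosolic ribosomal genes had stronger peaks, with library medians of list percentiles from 96.6 to 97.0 in WT.

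Some motifs were more frequent in the member promoters than in all promoters. The RefSeq promoter table has an entry for 78 of the 98 members, 74 of them with a peak in all 6 lists, and each window runs from 250 bases before to 50 bases after the start. An exact NRF1 match was present in 14.9% of the 74 windows, against 4.19% of the 9849 windows of all genes with a peak in all 6 lists and 2.94% of all 15324 windows. For the ETS string the shares were 16.2%, 9.66% and 6.43%, and for the YY1 string 13.5%, 4.46% and 2.98%. At least 1 of these strings was found in 30 of the 74 (40.5%), against 17.1% of windows with a peak and 11.6% of all windows. A CRE was found in 6.76% of the members (SDHB, NDUFA10, ATP5ME, NDUFB2 and ATP5MC1), against 3.50% and 2.77%. Of the general promoter elements, SP1 strings were found in 64.9% of members and 73.3% of windows with a peak, and CCAAT in 32.4% and 37.3%. The TATAAA string was found in 6.76% of members, against 5.22% of windows with a peak and 9.42% of all windows. These shares are descriptions and were not tested.

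Members of both directions held these strings. An NRF1, ETS or YY1 string was in 6 of the 13 windows of higher members and in 5 of the 6 windows of lower members. Among the higher members COX5B, NDUFS1 and ATP5F1A held the ETS string, ATP5F1C and ATP5MC2 the NRF1 string and NDUFAF8 the YY1 string. Among the lower ones ATP5MK and COX8A held the ETS string, NDUFA5 the NRF1 string, and NDUFS4 and NDUFB8 the YY1 string. No CRE, the element bound by CREB, was found in the 13 windows of higher members or the 6 of lower members. A CRE was present in only 3.50% of all windows with a peak, so its absence from so few windows says little.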

How the data were processed

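H3K27ac ChIP-seq peak lists of 3 WT and 3 CREBBP-KO libraries of HCEC-1CT were used. The authors made them with the nf-core ChIP-seq pipeline on hg38, aligning with BWA and calling narrow peaks with MACS2 in each library against input. As deposited, each peak carries a fold enrichment over background (a ratio) and its -log10 p and -log10 q. The authors also thinned the reads to a common upper limit with seqtk and ran the pipeline again. Which of these versions was deposited, and which input served which library, is not given in the sources used here. P-values measure the spread between the replicate libraries of each genotype. Whether these were grown separately is not stated in the sources used here.

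Starts were those of protein-coding transcripts in GENCODE 44. A gene's value was the highest fold among peaks overlapping 1 kb either side of any start. Ranks among the 12327 genes with a peak in all 6 lists were turned into normal scores and tested by limma 3.58.1 in R 4.3.3 (trended empirical Bayes, CREBBP-KO minus WT, Benjamini-Hochberg adjusted p under 0.05), because the lists hold no counts. The fit was tested on simulated data. Named members were SDHA to SDHD, members past the threshold, the 5 highest and 5 lowest levels, members without a peak, tissue isoforms with their partners, and core subunits, with 1 member counted but not reported here. An alternative ranked each gene by the highest deposited -log10 p in its window. The members and gene lists were chosen with earlier results of these data known. Motifs were searched as exact strings in RefSeq promoters, and all printed stretches equalled the reference genome.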

Additional observations from a re-analysis of the deposited data

How the results depend on the processing

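Over the 13 alternatives that bear on the count of members with a peak in all lists, it was 88 to 91, except for 63 when a shared peak is counted for 1 gene only. No member called higher or lower changed direction over 20 alternatives. Some settings moved the counts of members higher and lower from 18 and 8 (all genes 1787 and 1728). With log2 fold in place of ranks they were 57 and 1 (all genes 5232 and 429), by rank in the whole list 51 and 2 (4605 and 636), and by rank of -log10 p 4 and 2 (665 and 722). With shared peaks counted once they were 13 and 5 of 63 members (all genes 1530 and 1494). At an adjusted p under 0.0001 in limma they were 0 and 0 (17 and 35), against 28 and 10 members at an unadjusted p under 0.05. The value 0.0001 is the methods' false discovery threshold for reads, chosen here after seeing the data. The methods also required a minimum fold change and a minimum concentration, which were not applied here. By that read-based test over all peaks, the paper reports nearly all H3K27ac peaks unaffected by loss of CREBBP. Leaving out 1 library gave 10 to 15 higher and 5 to 7 lower of 91 members (all genes 1288 to 1431, 10.4% to 11.6%, and 1278 to 1450, 10.4% to 11.7%). The difference in the members' median list percentile, 5.01, was 6.78 with -log10 q of at least 5, 4.09 with lists of the same length, 2.82 by -log10 p and 6.06 with shared peaks once. The cause was not tested.

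Calls were lost without CREBBP-KO replicate 1 at COX5B, NDUFA11, NDUFAF6, NDUFAF8, NDUFB5, NDUFS4, NDUFV1 and NDUFV3, without replicate 2 at COX5B, COX8A, NDUFA11, NDUFB5, NDUFS1, NDUFV1, NDUFV3 and UQCRFS1, and without replicate 3 at ATP5F1C, ATP5MC2, COX5B, COX7A2, NDUFA11, NDUFAF8, NDUFS1, NDUFS4, NDUFV1 and NDUFV3. Without WT replicate 1 they were lost at ATP5MC2, COX5B, NDUFA11, NDUFA5, NDUFAF8, NDUFS4, NDUFV1, NDUFV3 and UQCRFS1, without replicate 2 at ATP5MC2, COX5B, NDUFAF8, NDUFB5, NDUFS4 and NDUFV3, and without replicate 3 at COX7A2, NDUFA11, NDUFAF6, NDUFAF8, NDUFB5, NDUFS1, NDUFS4, NDUFV1 and NDUFV3.

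Members not called by rank among promoters changed sign in places. With log2 fold the shift was 0.25 for ATP5MG, 0.074 for ATP5PF, 0.24 for COX5A, 0.061 for COX6B1, 0.032 for COX7B, 0.22 for NDUFA4 and 0.23 for UQCRH. By rank in the whole list it was 0.17 for ATP5MG, 0.14 for COX5A, 0.10 for COX6B1, 0.063 for NDUFA4 and 0.051 for UQCRH. By -log10 p it was -0.022 for NDUFA3 and -0.0097 for UQCRC2. Leaving out 1 library moved ATP5MG between -0.23 and 0.055, COX5A between -0.21 and 0.033, NDUFA4 between -0.30 and 0.14, NDUFAF4 between -0.0056 and 0.28, UQCRC1 between -0.013 and 0.45, and UQCRH between -0.23 and 0.0022.

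Whether libraries with the same replicate number were handled together is not stated in the sources used here. The deviations of same-numbered libraries correlated at 0.022, 0.011 and 0.024, and each library correlated best with its own number. With a replicate block 19 members were higher and 8 lower (all genes 1755 and 1726), and COX5B, NDUFS4 and NDUFV3 were not called. Without read counts, what depth limits at the weaker peaks cannot be stated.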
